A study of Mus musculus with 6 samples.

Results

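Neutrophils of the mouse liver were described here from 137 cells among 38697 cells kept in 6 single-cell libraries. A kept cell had at least 300 genes, at least 500 unique molecular identifiers (UMIs, counts of captured RNA molecules) and at most 30% mitochondrial UMIs. A neutrophil was a kept cell with at least 10 UMIs over S100a8 and S100a9 and at least 1 UMI over Retnlg, Csf3r, Cxcr2, Mmp8 and Mmp9. It also had 0 UMIs of Clec4f, Timd4, Cd79a, Cd3e and Ccr2, and at most 1 UMI over Stab2, Clec4g and Reln, genes of other liver cells. The donors were wild-type male mice whose strain the labels do not give. All of them, controls included, had partial inferior vena cava ligation (pIVCL), which congests the liver, at 8 to 10 weeks of age. Osmotic pumps placed under the skin 2 weeks later delivered DMSO, the vehicle, in 3 mice or CWHM-12, an inhibitor of every integrin that holds the αV subunit, at 100 mg/kg/day in 3 mice. Livers were taken after 4 weeks of treatment, digested with pronase and collagenase, cleared of dead cells and erythrocytes on a density gradient, and loaded as a mixture of nonparenchymal cells with a minor part of hepatocytes. Batch 2024.6 held DMSO 1, DMSO 2 and CWHM-12 1, and batch 2024.12 held DMSO 3, CWHM-12 2 and CWHM-12 3.

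Neutrophils are short-lived phagocytes made in the bone marrow, where they fill their granules in a fixed order. Primary granule proteins such as myeloperoxidase are made by promyelocytes, specific granule proteins such as lactoferrin by myelocytes and metamyelocytes, and gelatinase granule proteins by band cells, while cell division ends with the myelocyte. Mature cells leave the marrow with receptors for chemokines, complement and microbial products, and in the liver they pass through or stay in the sinusoids. Integrins that hold αV attach cells to matrix proteins and can free TGF-β from its latent complex.

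The libraries gave very unequal numbers of neutrophils. DMSO 1, 2 and 3 held 15, 21 and 36 of them, and CWHM-12 1, 2 and 3 held 46, 18 and 1. The single neutrophil of CWHM-12 3 enters the counts of cells and no comparison of genes. Neutrophil UMIs summed to 69645, 58210 and 145132 in the DMSO libraries and to 198487, 39193 and 1723 in the CWHM-12 libraries, and the median neutrophil held between 1660.5 and 3524 UMIs. Their median share of mitochondrial UMIs was 1.33% to 2.88%, below the 7.40% to 11.4% of kept cells in the same libraries. No neutrophil barcode occurred in more than 1 library, and pairs of libraries shared at most 5 barcodes. Of 161 kept cells with at least 10 UMIs over S100a8 and S100a9, 158 had a UMI of the 5 granulocyte genes. The genes of macrophages, B cells, T cells and monocytes then removed 14, of which 11 had a Clec4f UMI, and the endothelial and stellate genes removed 7 more. Near the threshold, 6 neutrophils had 10 to 14 UMIs over S100a8 and S100a9, and 3 otherwise passing cells had 5 to 9. Those just inside had a median of 1423 UMIs in all and 16 over the 5 granulocyte genes, and those just outside 1200 and 16. The median neutrophil had 229 UMIs over S100a8 and S100a9, in a range of 10 to 2188.

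Genes that the rule did not use fitted the label. Genes were ranked by their CPM (UMIs of a gene scaled to 1000000 UMIs in all) in neutrophils over those in all other kept cells, in medians over libraries. The 12 leading genes with at least 200 CPM were Ltf, Ngp, Camp, Itgb2l, Ceacam10, Ly6g, Fcnb, Stfa2l1, Il36g, Chil1, Lcn2 and Cd177. Ltf encodes lactoferrin, Ngp neutrophilic granule protein, Camp the antimicrobial peptide cathelicidin and Lcn2 the iron-siderophore binding protein lipocalin 2. Ly6g is the surface antigen by which mouse neutrophils are usually sorted. Ngp stood at 40935 CPM in neutrophils and 2.62 CPM in other cells, Ltf at 9975 and 0.530 CPM, and Ly6g at 842 and 0.125 CPM. No test goes with these ratios, since the cells were chosen by expression. The genes of the rule were present in every library. S100a8 and S100a9, the subunits of calprotectin, together made up 10.5% to 13.6% of neutrophil UMIs. Retnlg, a resistin-like secreted protein, had 9304, 12987 and 11390 CPM in the DMSO libraries and 16293, 9543 and 14510 CPM in the CWHM-12 libraries. Csf3r, the receptor for granulocyte colony-stimulating factor, was found in 109 of the 137 cells and Cxcr2, a receptor for CXC chemokines, in 126.

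Markers of hepatocytes, endothelium and Kupffer cells were lower in neutrophils than in the other cells. UMIs of hepatocyte genes such as Alb were found for 10 of 10 listed markers, at a summed 1502 to 2541 CPM in DMSO neutrophils and 714 to 2202 CPM in those of CWHM-12 1 and 2, against 3757 to 9429 CPM in the other cells. Sinusoidal endothelial markers (9 of 10 with a UMI, Kdr at 0) summed to 57.4 to 124 CPM in DMSO and 75.6 to 179 CPM in CWHM-12 neutrophils, against at least 7801 CPM in the other cells. Stab2 and Clec4g are among these markers. The rule allowed at most 1 UMI over them and Reln, so the low sum follows in part from the rule. Kupffer cell markers outside the rule (8 of 9 with a UMI, Marco at 0) summed to 34.4 to 303 CPM in DMSO and 252 to 638 CPM in CWHM-12 neutrophils. The Kupffer sums were therefore higher in 1 of the 2 CWHM-12 libraries than in any DMSO library, and their part in the results below was not tested. Monocyte markers outside the rule were not lower. They summed to 1688 to 1953 CPM in DMSO and 1617 to 2067 CPM in CWHM-12 neutrophils, against 1481 to 2221 CPM in the other cells. Of these 7 markers 4 had a UMI, and 809 of the 888 UMIs were Ly6c2, a gene of the Ly6 family that is also made by young granulocytes, while F13a1, Ms4a4c and Cx3cr1 were at 0. Of 8 markers of basophils, mast cells and eosinophils, Mcpt8, Cpa3, Gata2, Prg2 and Epx were at 0 as well. The other 3 (Ms4a2, Siglecf and Ccr3) had 19 UMIs in 14 neutrophils. This list summed to 20.7 to 71.8 CPM in DMSO and 25.5 to 40.3 CPM in CWHM-12 neutrophils, against 48.9 to 84.3 CPM in the other cells.

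Neutrophils made up between 0.0124% and 0.744% of kept cells, and the groups did not separate. The share was 0.253% in DMSO 1 (Wilson 95% interval 0.153 to 0.417), 0.664% in DMSO 2 (0.435 to 1.01) and 0.522% in DMSO 3 (0.377 to 0.722). It was 0.744% in CWHM-12 1 (0.558 to 0.991), 0.213% in CWHM-12 2 (0.135 to 0.337) and 0.0124% in CWHM-12 3 (0.00219 to 0.0701). These intervals cover counting error only. The highest and the lowest value both belonged to CWHM-12 libraries. The mean was 0.480% ± 0.209 (SD, n = 3) with DMSO and 0.323% ± 0.378 (SD, n = 3) with CWHM-12, a difference of -0.156 percentage points (two-sided exact permutation p = 0.6 over 20 assignments, of which the smallest possible p is 0.1). Within batch 2024.6 the difference was 0.286 points towards CWHM-12, and within batch 2024.12 it was -0.409 points. Without CWHM-12 3 the difference shrank to -0.000963 points, and without CWHM-12 1 it was -0.367 points. Without DMSO 1 it was -0.270 and without DMSO 2 -0.0642 points.

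The count did not follow that of monocytes, the nearest other blood-derived myeloid cells. Monocytes were taken as kept cells with a Ccr2 UMI and at least 2 UMIs over Ly6c2, Ms4a6c, F13a1, Ms4a4c and Csf1r, under the same exclusions otherwise. There were 116, 104 and 117 of them in the DMSO libraries and 97, 136 and 79 in the CWHM-12 libraries. Their share of kept cells was 1.95%, 3.29% and 1.70% with DMSO and 1.57%, 1.61% and 0.978% with CWHM-12. It was thus lower in every CWHM-12 library (two-sided exact permutation p = 0.1, the smallest possible), and a ratio to monocytes carries this difference. Per monocyte, the DMSO libraries held 0.129, 0.202 and 0.308 neutrophils and the CWHM-12 libraries 0.474, 0.132 and 0.0127. The CWHM-12 values thus spanned the whole DMSO range (means 0.213 and 0.206, two-sided exact permutation p = 1). In CWHM-12 3, 4 barcodes had at least 10 UMIs over S100a8 and S100a9 and 2 of them were below the cell filter. An S100a8 or S100a9 UMI occurred in 0.186% of the other cells of that library and in 1.04% to 3.12% of those of the other 5.

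**Figure D1:**
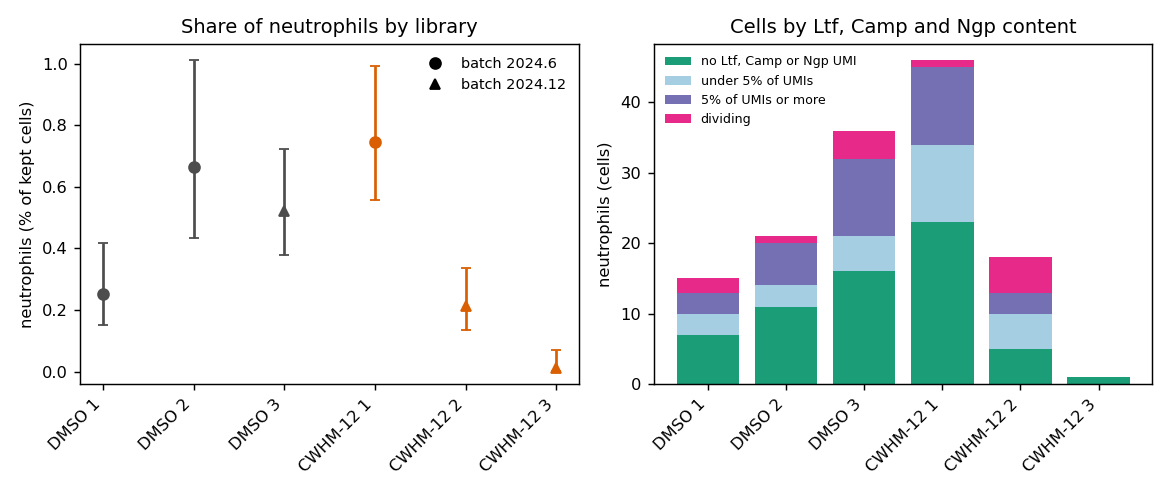
The left panel plots neutrophils as a percentage of kept cells in each library with Wilson 95% intervals (circles, batch 2024.6; triangles, batch 2024.12; grey, DMSO; orange, CWHM-12), and the right panel the number of neutrophils by their content of Ltf, Camp and Ngp transcripts. CWHM-12 holds both the highest share, 0.744%, and the lowest, 0.0124%, and each library with more than 1 neutrophil holds every range of content.

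Neutrophils differed among themselves in specific granule transcripts. Ltf, Camp and Ngp together made up from 0 to 13.5% of a cell's UMIs. Cells were described in 4 ranges, set after these values were seen. In 63 cells there was no UMI of the 3 genes, in 27 they made up less than 5% of UMIs, and in 34 they made up 5% or more. The remaining 13 cells had at least 10 UMIs over 8 cell cycle genes (Mki67, Top2a, Cdk1, Ccna2, Ccnb1, Ccnb2, Birc5 and Tubb5) and are called dividing. They held 4.55% to 10.6% of their UMIs in the 3 granule genes. Few cells lay near the limits of 5% and of division: 4 cells lay between 4% and 6%, no cell had 5 to 9 cell cycle UMIs, and the cells below that limit had at most 4. The lower limit was not a gap, since 15 of the 27 cells under 5% lay between 0 and 1%, 3 of them with a single UMI of the 3 genes. Depth rose with granule content, from a median of 1852 UMIs in the cells without granule transcripts to 3524 in those under 5%, 5875 in those at 5% or more and 9151 in the dividing cells. The share of S100a8 and S100a9, which chose the cells, was 3.93% in the first range at the median and 13.2%, 14.9% and 12.4% in the others. Free RNA gave few such UMIs: a UMI of Ltf, Camp or Ngp occurred in 0.0248% to 1.97% of the other kept cells of a library, whose median depth was 2124.5 to 3741 UMIs.

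Promoters are shown for Ngp, Ltf and Camp, which set the ranges, for Lcn2, a specific granule gene that was higher in the granule-rich cells in all 5 libraries, and for Il1b, which was lower there in all 5. The sequences are from RefSeq, build GRCm38.p6, on the strand of the gene, from 250 bases before to 50 after the start. They lie at chr9:110419558-110419857 (Ngp, plus strand), chr9:111019042-111019341 (Ltf, plus), chr9:109849407-109849706 (Camp, minus), chr2:32387690-32387989 (Lcn2, minus) and chr2:129371090-129371389 (Il1b, minus). Capitals mark matches on either strand to TTNNGNAA, a spelling of the site bound by C/EBP factors, which include C/EBPε, a factor of the specific granule genes.
Ngp: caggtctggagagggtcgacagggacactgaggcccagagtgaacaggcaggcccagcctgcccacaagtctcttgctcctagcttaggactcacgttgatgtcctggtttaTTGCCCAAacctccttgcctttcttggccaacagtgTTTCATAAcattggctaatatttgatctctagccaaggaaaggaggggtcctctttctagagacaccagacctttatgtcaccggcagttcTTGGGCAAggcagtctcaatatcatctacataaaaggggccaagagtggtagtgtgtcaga
Ltf: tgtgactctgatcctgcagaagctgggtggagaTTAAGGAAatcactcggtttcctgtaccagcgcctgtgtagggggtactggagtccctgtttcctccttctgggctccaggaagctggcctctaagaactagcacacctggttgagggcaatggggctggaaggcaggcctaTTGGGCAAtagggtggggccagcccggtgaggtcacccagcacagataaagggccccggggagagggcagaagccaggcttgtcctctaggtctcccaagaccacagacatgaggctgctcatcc
Camp: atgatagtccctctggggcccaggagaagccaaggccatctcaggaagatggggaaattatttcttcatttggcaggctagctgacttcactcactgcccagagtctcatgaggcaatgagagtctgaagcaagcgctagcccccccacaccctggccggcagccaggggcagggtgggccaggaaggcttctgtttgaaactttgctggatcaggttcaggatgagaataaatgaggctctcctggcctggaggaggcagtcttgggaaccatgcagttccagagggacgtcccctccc
Lcn2: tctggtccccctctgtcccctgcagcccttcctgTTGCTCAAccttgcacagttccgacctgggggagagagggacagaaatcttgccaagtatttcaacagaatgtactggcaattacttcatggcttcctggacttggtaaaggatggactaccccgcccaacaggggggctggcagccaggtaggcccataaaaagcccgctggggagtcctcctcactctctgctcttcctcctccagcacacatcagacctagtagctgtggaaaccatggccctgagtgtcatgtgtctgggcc
Il1b: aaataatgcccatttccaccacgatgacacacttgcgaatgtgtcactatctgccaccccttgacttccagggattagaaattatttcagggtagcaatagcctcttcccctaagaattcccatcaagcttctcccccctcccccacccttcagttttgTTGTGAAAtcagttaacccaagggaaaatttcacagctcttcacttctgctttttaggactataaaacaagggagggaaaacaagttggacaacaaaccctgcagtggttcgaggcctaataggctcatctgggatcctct
The Ngp promoter holds 3 matches, Ltf 2, Lcn2 and Il1b 1 each, and Camp 0. The motif is short, and 40.7% of 32851 promoters of this length hold it. It was found in 7 of the 9 specific granule genes with an entry and in 4 of 9 genes that led the cells without granule transcripts. The letters GAGGAA, part of sites bound by PU.1, were in 28.3% of the promoters, in 5 of those 9 and in 7 of those 9. The shares of 40.7% and 28.3% are per promoter, and the 32851 promoters belong to 27025 genes. A listed gene was counted if any of its promoters matched, so the counts and the shares are not the same measure. A match says nothing about binding in these cells.

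Several genes of cytokines and receptors, picked here for their large difference, were far higher in the cells without granule transcripts than in the granule-rich cells, those at 5% or more. Values are CPM as the mean ± SD of the 5 libraries with at least 3 cells of both ranges, with the UMIs summed over all cells of the range, out of 120583 UMIs without granule transcripts and 183109 in granule-rich cells. Il1b, the cytokine interleukin-1β, stood at 4375 ± 1635 CPM in the cells without granule transcripts (496 UMIs) and at 0 UMIs in the 34 granule-rich cells, which makes it at least 251-fold higher. The bound sets 3 UMIs in place of 0 over the group. Ccl6, a CC chemokine, stood at 3527 ± 763 against 31.2 ± 19.95 CPM, a 110-fold difference of the summed values. The C-type lectin receptors Clec4d and Clec7a, which bind fungal cell wall sugars, had 1164 ± 216 CPM against 0 UMIs (at least 70.4-fold) and 2121 ± 649 against 24.6 ± 32.0 CPM (67.1-fold). Stfa2l1, a stefin-like protease inhibitor, and Wfdc17 also had 0 UMIs in the granule-rich cells and were at least 108-fold and at least 82.5-fold higher without granule transcripts. Dusp1, a phosphatase that switches off MAP kinases, stood at 2958 ± 1001 against 130 ± 119 CPM. The granule-rich cells were the deeper ones, and the part of depth in these differences was not tested. Il1b, Ccl6, Clec4d, Clec7a, Stfa2l1 and Wfdc17 together gave at least 1 UMI in 63 of 63 cells without granule transcripts and in 9 of 34 granule-rich cells, at medians of 1.36% and 0 of UMIs. The cells under 5% lay between, with a median of 0.301%.

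**Figure D2:**
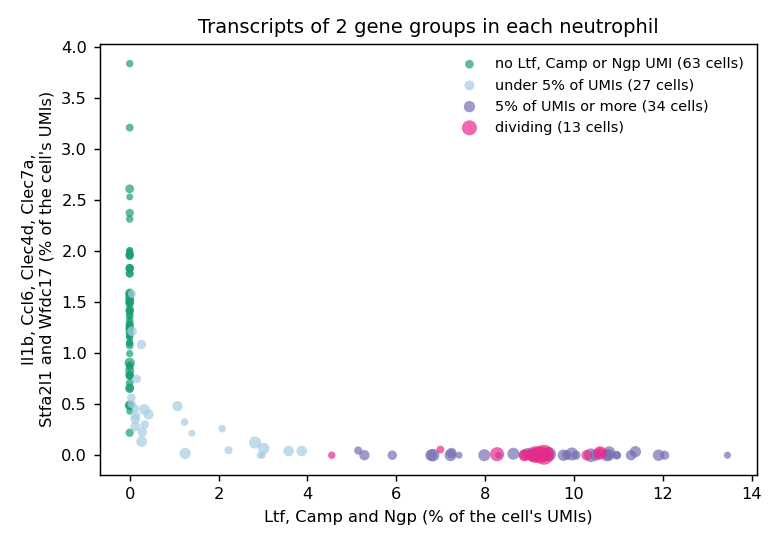
Each point is 1 of the 137 neutrophils, placed by the percentage of its UMIs from Ltf, Camp and Ngp (x axis) and from Il1b, Ccl6, Clec4d, Clec7a, Stfa2l1 and Wfdc17 (y axis), with point area growing with its UMIs. The points follow the axes: granule-rich cells reach at most 0.0459% on the y axis, and the highest value on the y axis, 3.84%, belongs to a cell at 0 on the x axis.

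The granule-rich cells led in a second set of genes. Chil3, a chitinase-like secreted protein, had 1880 UMIs there (10420 ± 1170 CPM) and 0 in the cells without granule transcripts. Lcn2 stood at 15969 ± 4581 against 1351 ± 837 CPM. Cybb, the membrane subunit of the NADPH oxidase that makes superoxide, stood at 6347 ± 953 against 97.2 ± 66.6 CPM. Ifitm6, of the interferon-induced transmembrane family, stood at 7658 ± 1372 against 247 ± 120 CPM. The surface antigens followed the same order, with Ly6g at 1260 ± 347 against 86.2 ± 77.7 CPM and Cd177 at 2072 ± 795 against 92.0 ± 85.8 CPM. A UMI of Ly6g was therefore found in 7 of the 63 cells without granule transcripts and in 29 of the 34 granule-rich cells.

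Over all 2495 genes with at least 30 UMIs in neutrophils, 17.0% were higher in the cells without granule transcripts in each of the 5 libraries and 8.18% were lower. No test goes with these counts, since the ranges were cut from the same cells. Of 7 specific granule genes other than Ltf, Camp and Ngp, 5 were lower in all 5 libraries and 0 higher. Of 14 genes of blood neutrophil maturity, 10 were higher and 2 lower, Ly6g and Wfdc21. The higher ones include Msrb1 and Gsr, enzymes against oxidative damage. They also include Csf3r (4232 ± 352 against 149 ± 73.5 CPM), Cxcr2 (5688 ± 1063 against 799 ± 364 CPM) and Retnlg, which are genes of the selection rule, so their values helped to choose these cells and support nothing. Of 17 Fc and pattern recognition receptors 10 were higher and 0 lower. Of 16 chemoattractant and growth factor receptors 6 were higher, among them C5ar1, a receptor for complement C5a, and 1 lower, Fpr2, a formyl peptide receptor. Csf3r and Cxcr2 are also among these 6, and as genes of the selection rule they support nothing here either. Of 8 cytokines and chemokines 2 were higher, Il1b and Ccl6, and 0 lower, and of 4 NF-κB response genes 1 was higher, Tnfaip2. Of 18 early response genes, which also rise in cells during tissue digestion, 11 were higher and 0 lower; the part of digestion was not tested.

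In other functional groups the counts were small or went both ways. Beside them stand the shares over all 2495 genes, 17.0% higher and 8.18% lower. Some counts lie near these shares, such as the 14.3% of NADPH oxidase genes that were higher. Of 7 NADPH oxidase genes, 2 were lower in the cells without granule transcripts, Cybb and Ncf1, and 1 was higher. Among 12 interferon response genes 6 were higher and 3 lower. Within that list Ifitm1 had 357 UMIs without granule transcripts against 3 in granule-rich cells. Ifitm2 was higher without granule transcripts, at 3133 ± 1394 against 515 ± 396 CPM, whereas Ifitm3 was lower, at 734 ± 263 against 1055 ± 375 CPM, as was Ifitm6. Of 10 adhesion genes 4 were higher, including Selplg, the ligand of P-selectin, and Itga4, and 3 lower, including Itgam, the αM chain of the integrin Mac-1. Of 6 lipid mediator genes, Alox5ap and Pla2g7 were higher and Lta4h and Ptgs1 lower. Lta4h, which makes the chemoattractant leukotriene B4, had 5 UMIs against 200. Among 5 inflammasome genes Nlrp3, the sensor, had 47 UMIs against 0 and was higher in all 5 libraries, as was Il1b. Of 10 granulocyte transcription factors 6 were higher, including Cebpb, Junb and Fosl2, and 1 was lower, Cebpe, with 2 UMIs against 34. Of 10 glycolysis genes 0 were higher and 2 lower, Pgam1 and Ldha.

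Of 6 tertiary granule and secreted protease genes, 4 were highest in the cells under 5% and 2 in the cells without granule transcripts. Mmp8, the neutrophil collagenase, summed to 1518 CPM in the cells without granule transcripts, 13134 CPM in those under 5%, 5499 CPM in those at 5% or more, and 0 UMIs in the dividing cells. Mmp9, gelatinase B, ran through 2836, 5805, 3331 and 336 CPM in the same order. Mmp25 ran through 124, 865, 481 and 198 CPM and Adam8 through 547, 940, 268 and 8.61 CPM. Slc11a1, a metal transporter of phagosomes, and Asprv1 had 32 and 35 UMIs without granule transcripts against 2 and 3 in granule-rich cells, and both were higher in all 5 libraries. Retnlg, of the maturity list, ran through 10889, 47789, 5101 and 189 CPM. Mmp8, Mmp9 and Retnlg are in the selection rule, which asked for 1 UMI over 5 genes, so their absence could not be seen in a cell that lacked all 5. Such cells were few, since 3 otherwise passing cells had none.

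The dividing cells held granule transcripts and cell cycle transcripts side by side. Top2a, a topoisomerase of dividing cells, had 248 of the 116187 UMIs in the 13 dividing cells and 4 in the 34 granule-rich ones, and Mki67 had 141 and 1; both were used to find the dividing cells. Outside those 8 genes, Tuba1b, a tubulin, had 229 UMIs against 7, which is 51.6-fold more per UMI, Stmn1, a regulator of microtubules, had 103 against 6, and Hmgb2, a chromatin protein, 814 against 291. After each cell was thinned to 500 UMIs, a UMI of the 8 genes was left in 12 of 13 dividing cells, 3 of 34 granule-rich cells, 2 of 27 under 5% and 0 of 63 without granule transcripts. Fcnb, a ficolin of early granule stages, had 167 UMIs in the dividing cells, where each of the 13 held it, 75 in 10 of the granule-rich cells, and 0 in the other ranges. Camp and Chil3 stood at 13547 and 15862 CPM in dividing cells against 9328 and 10267 CPM in granule-rich cells. Csf3r, Cxcr2 and Retnlg were at 103, 138 and 189 CPM, lower than in any other range. These 3 are genes of the selection rule, so their values helped to choose the cells. Over all ranges, 5 neutrophils passed with a single UMI of the rule's granulocyte genes.

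Primary granule transcripts were nearly absent from the cells that the rule admitted. Elane, neutrophil elastase, had 7 UMIs in all neutrophils, Prtn3, proteinase 3, had 3, Ms4a3, a membrane protein of granulocyte precursors, 13 and Prss57 7, whereas Mpo and Ctsg had 0. Of these 30 UMIs 26 lay in dividing cells. All kept cells together held 1523 Mpo and 857 Elane UMIs, nearly all of them outside the neutrophils. Most UMIs of Mpo, Elane, Prtn3 and Ctsg lay in 25 kept barcodes, none of which had 10 UMIs over S100a8 and S100a9. The rule could therefore not admit them, and the near absence follows in part from the rule.

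**Figure D3:**
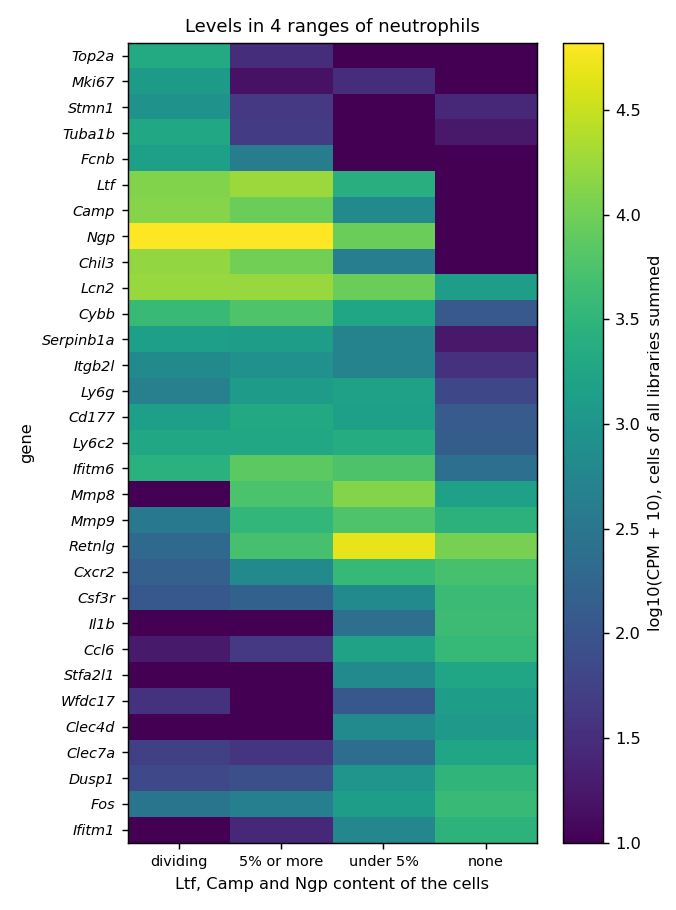
The heat map shows 31 genes (rows) in neutrophils summed over libraries by range of Ltf, Camp and Ngp content (columns), on a colour scale of log10(CPM + 10). From left to right, cell cycle genes and Fcnb fade first, then Ltf, Camp, Ngp and Chil3, while Mmp8 and Retnlg peak in the cells under 5% and Il1b, Csf3r and Clec4d are highest in the cells without granule transcripts.

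Transcripts of the drug's target were scarce in neutrophils. Itgav, the αV subunit, had 7 UMIs in the 137 cells, each in a different cell. In CPM it was 14.4, 17.2 and 13.8 in the DMSO libraries and 10.1 and 25.5 in CWHM-12 1 and 2, so every library with 10 or more neutrophils held at least 1 UMI and the groups overlapped. All other kept cells had a median of 61.6 CPM and monocytes 69.8. Of the β partners, Itgb3 had 30 UMIs, Itgb1 23, Itgb5 1, and Itgb6 and Itgb8 0. Itgb3 was the one partner measured by range, and it was lower in the cells without granule transcripts in all 5 libraries, with 4 UMIs against 22. Itgb2, the β2 chain that pairs with αM and αL on leukocytes, was found in 126 cells and Itgam in 117. Of the TGF-β signalling genes, Tgfb1 had 9 UMIs, Tgfbr1 15, Tgfbr2 32, Smad4 71 and Nrros, which holds latent TGF-β on myeloid cells, 90. Smad4 and Nrros reached the filter for the test of treatment, at a mean of 129 and 192 CPM over the libraries tested. None of the αV genes reached the filter for the test of treatment.

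The range of granule content was compared between treatments on cells thinned to 500 UMIs, since depth differed. A UMI of Ltf, Camp or Ngp was left in 6 of 15 cells of DMSO 1 (40.0%), 9 of 21 of DMSO 2 (42.9%), 17 of 36 of DMSO 3 (47.2%), 21 of 46 of CWHM-12 1 (45.7%) and 13 of 18 of CWHM-12 2 (72.2%). Unthinned, the shares were 53.3%, 47.6%, 55.6%, 50% and 72.2%. CWHM-12 2 stood above the rest and CWHM-12 1 lay among the DMSO libraries. Over the 3 libraries with at least 20 neutrophils, of which CWHM-12 1 was the only treated one, the difference was 0.612 percentage points (two-sided exact permutation p = 1 over 3 assignments, with 0.333 the smallest possible). With the 2 smaller libraries it was 43.4% ± 3.64 (SD, n = 3) against 58.9% ± 18.8 (SD, n = 2), a difference of 15.6 points (two-sided exact permutation p = 0.2, with 0.1 the smallest possible). Within batches this was 4.22 points in 2024.6 and 25 points in 2024.12. The 13 dividing cells fell 2, 1 and 4 in the DMSO libraries and 1 and 5 in CWHM-12 1 and 2, so that CWHM-12 2 also held the most of these.

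No gene passed the test of CWHM-12 against DMSO in neutrophils. Counts were summed over the neutrophils of each library with at least 10 of them, which left DMSO 1, 2 and 3 and CWHM-12 1 and 2, and fitted with a batch term. Of 1286 genes tested, 0.0% had an adjusted p under 0.05 in the edgeR quasi-likelihood test (smallest adjusted p = 0.998), and 22 genes, or 1.71%, had an unadjusted p under 0.05. DESeq2 and limma voom called 0 genes as well. The median log2 fold change was 0.018, and 51.7% of genes had a positive one. In 7.85% of genes both CWHM-12 libraries were above all DMSO libraries and in 8.55% below. Leaving out CWHM-12 2, whose 18 neutrophils gave the fewest UMIs, gave 3 genes that passed in edgeR: Cxcl2 (log2 fold change 2.90), Olfm4 (7.44) and Pck1 (3.52). The remaining CWHM-12 library is then assumed to vary like the others. Olfm4, a granule protein of a subset of neutrophils, was found in 5 cells, at 0, 0 and 468 CPM in the DMSO libraries and 181 and 25.5 CPM in CWHM-12 1 and 2, so DMSO 3 held the most. Cxcl2, a neutrophil chemoattractant, stood at 129, 17.2 and 221 CPM with DMSO and 554 and 76.5 CPM with CWHM-12, with the groups overlapping.

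The 10 genes of smallest p with at least 50 CPM are given as values that did not pass (edgeR adjusted p = 0.998 for each). Levels in this comparison use library sizes scaled by TMM, in CPM, and log2 fold changes are CWHM-12 over DMSO with their standard errors (SE). Ifitm1, an interferon-induced membrane protein, had 704, 451 and 403 CPM in DMSO 1, 2 and 3 and 1253 and 783 CPM in CWHM-12 1 and 2 (log2 fold change 1.05, SE 0.36). Its family member Ifitm2 had 791, 518 and 1015 against 1543 and 1410 CPM (0.92, SE 0.36). In both genes the CWHM-12 libraries lay above all DMSO libraries. Among the cells without granule transcripts, where both genes are highest, the fold changes were 1.09 and 0.96. Gapt, an adaptor protein of leukocytes, had 115, 83.6 and 76.5 against 210 and 287 CPM (1.39, SE 0.49). Man2a1, an enzyme of N-glycan processing, had 244, 150 and 139 against 55.1 and 52.2 CPM (-1.72, SE 0.64), and mt-Nd5, a mitochondrial complex I subunit, had 1409, 1922 and 966 against 892 and 548 CPM (-0.87, SE 0.36). Kmt2d (1.29), Atp6v1e1 (1.35) and Rassf5 (0.96) had positive fold changes, and Mppe1 (-1.31) and Ndufv3 (-1.23) negative ones, again without overlap between the groups.

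**Figure D4:**
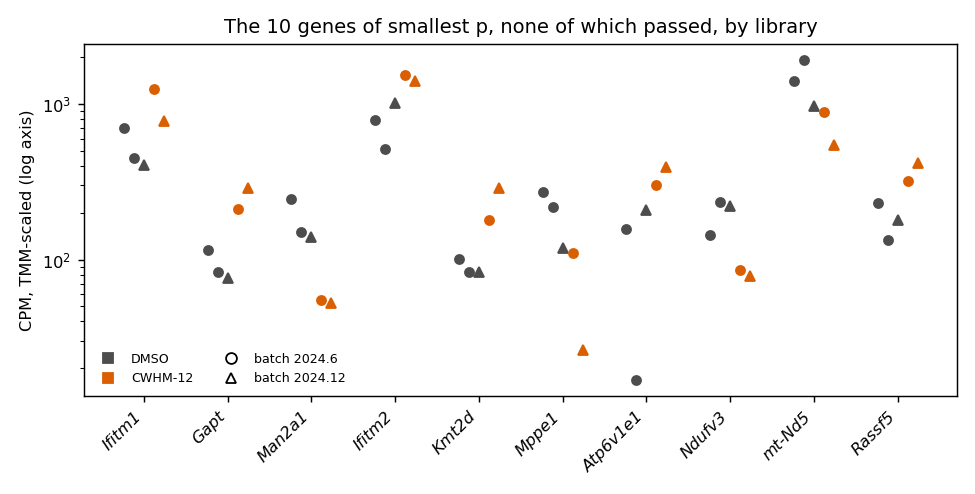
CPM on TMM-scaled library sizes (log axis) of the 10 genes of smallest p in the comparison of treatments, 1 point per library, DMSO in grey and CWHM-12 in orange, circles for batch 2024.6 and triangles for batch 2024.12. The groups do not overlap in any of the 10, which were picked for small p, and none passed the adjusted threshold.

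The abundant neutrophil genes stayed close between the groups. Ngp had 38093, 49596 and 41306 CPM with DMSO and 35821 and 50286 CPM with CWHM-12 (log2 fold change -0.04, SE 0.21). Cybb had 3507, 3459 and 3129 against 3237 and 3655 CPM (0.03, SE 0.28), and Itgam 1351, 1638 and 1432 against 1578 and 1593 CPM (0.11, SE 0.32). Ltf had 9358, 5732 and 10832 against 9921 and 10417 CPM (0.20, SE 0.27). In each of these the groups overlapped. Mmp9 had 2559, 2222 and 2559 against 3638 and 2976 CPM (0.44, SE 0.29), above the DMSO libraries in both CWHM-12 libraries, and did not pass. Il1b had 834, 1554 and 1147 against 937 and 392 CPM (-0.77, SE 0.41), with CWHM-12 1 among the DMSO libraries and CWHM-12 2 below them. Csf3r (-0.23, SE 0.35) and Cxcr2 (-0.09, SE 0.30) overlapped as well.

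The gene lists gave small medians that mostly changed sign between batches. Of 10 specific granule genes 6 had a positive fold change, with a median of 0.13, which was 0.28 within batch 2024.6 and -0.08 within batch 2024.12. Of 14 maturity genes 8 were positive (median 0.11; 0.44 and -0.24 within the batches), of 13 Fc and pattern receptors 9 (0.07; 0.19 and -0.25), and of 10 granulocyte transcription factors 9 (0.16; 0.68 and -0.14). The 5 cytokines had a median of 0.27, which was 0.99 within batch 2024.6 and -0.89 within batch 2024.12. The 12 cell cycle genes went the other way, at -0.74 and 1.12, where CWHM-12 2 held 5 dividing cells of 18 and CWHM-12 1 held 1 of 46. The interferon list kept its sign, with 6 of 7 genes positive, a median of 0.37, and 0.42 and 0.47 within the batches. Its 7 tested members of 27 include Ifitm1, Ifitm2 and Ifitm3, whose CWHM-12 values lay above all DMSO values, against 7.85% of all genes, and Oasl2 (-0.41, SE 0.48) was the negative one. Leukocyte adhesion (6 of 9 positive, median 0.22) was positive in both batches and lipid mediators (1 of 5 positive, median -0.15) negative in both. No gene of these lists passed the edgeR test.

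**Figure D5:**
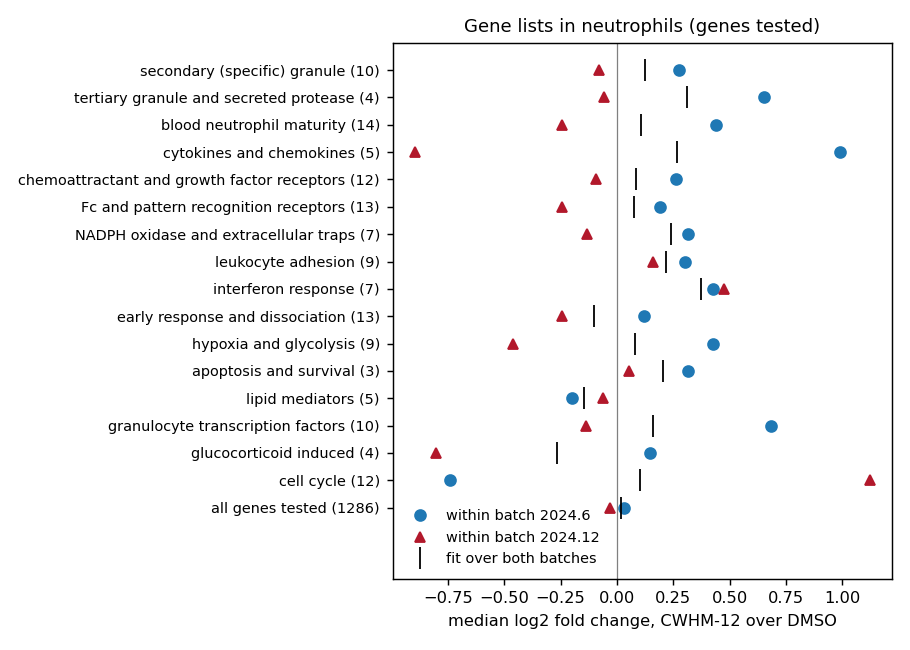
Median log2 fold change of CWHM-12 over DMSO in neutrophils for gene lists with at least 3 genes tested (number in parentheses), within batch 2024.6 (circles), within batch 2024.12 (triangles) and in the fit over both (bars). Most lists have their circle and triangle on opposite sides of 0, and the interferon list has both on the positive side, at 0.42 and 0.47.

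The response of neutrophils was also set against that of monocytes in the same 5 libraries, by an interaction term for class and treatment in a fit that blocked on library. Of 6399 genes 0.0% passed (smallest edgeR adjusted p = 0.281) and 2.16%, 138 genes, had an unadjusted p under 0.05. Zbtb20, a transcription repressor also abundant in hepatocytes, had the smallest p (log2 difference of responses 4.67, SE 1.14) and passed with 4.79 when the class by batch term was left out. Without CWHM-12 1, which left CWHM-12 2 as the only treated library, the log2 difference was 3.73 for Lcn2 and -1.41 for Lyz2. Neutrophils held 14614 CPM of Lcn2 in DMSO 3 and 13166 CPM in CWHM-12 2. Monocytes held 1.31, 0 and 51.2 CPM of Lcn2 in DMSO 1, 2 and 3 and 2.23 CPM in CWHM-12 2, so DMSO 3 stood apart in the monocytes.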

How the data were processed

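BD Rhapsody whole transcriptome libraries from 6 livers were analysed. Per the file headers, the authors deposited UMI counts as whole numbers for each gene in each barcode. Their processing notes name GRCm39 as the build, and the sources used here do not give the aligner, the annotation or the selection of barcodes. Each library is labelled as a sample from a mouse with no identifier, so p-values reflect differences between libraries that may be technical.

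The members, gene lists and tests were chosen with earlier results of these data known. Neutrophil counts were summed per library and tested with edgeR 4.0.16 (quasi-likelihood, TMM, its filter on low counts, a batch term, Benjamini-Hochberg at 0.05 over all genes tested) in R 4.3.3. The planned minimum of 20 neutrophils per library left 1 CWHM-12 library and therefore no test of genes, so the alternative minimum of 10 is reported for this comparison, and the same minimum was added for the comparison with monocytes. Values within a batch are differences of log2 CPM. Shares were compared with exact permutation tests. Doublets were not removed, and scores above 0.25 from Scrublet (scanpy 1.11.5), which 1 neutrophil had, were an alternative. Other alternatives were DESeq2 1.42.0, limma 3.58.1, other normalizations, filters and cell definitions, a replicate block and leaving out each library.

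Named genes were those past 0.05, or, with fewer than 5 such genes, the 10 genes at 50 CPM or more that had the smallest p. Added to them were the 3 members of highest CPM of each list, the αV genes, the 12 leading genes and the genes of the rule. Of these, not all are described, and some genes are not reported here. Genes named for the ranges of granule content were chosen after their values were seen, as were Olfm4, Pck1, Zbtb20 and Lyz2. The code was tested on simulated data. Promoters from RefSeq (GRCm38.p6) were matched by symbol, and no coordinate was set against the data.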

Additional observations from a re-analysis of the deposited data

How the results depend on the processing

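The difference in the neutrophil share kept its direction under every alternative run (-0.315 to -0.131 percentage points with all libraries), and leaving out single libraries moved it between -0.367 and -0.000963 points; with 3 libraries a group no exact p could fall below 0.1. The difference in the share of cells with a Ltf, Camp or Ngp UMI, 0.612 points over 3 libraries, had no stable sign. It was -0.316 with the looser cell filter, -5.97 with the stricter one, -1.45 and -2.87 with at least 5 and at least 20 UMIs over S100a8 and S100a9, -2.18 with at least 2 granulocyte gene UMIs, -0.0621 without Scrublet doublets, -1.59 unthinned and -5.56 when thinned to 1000 UMIs. DMSO 2 fell below 20 cells with the stricter filter (15 cells), with at least 20 UMIs over S100a8 and S100a9 (19) and when thinned to 1000 UMIs (17), so these values set DMSO 3 alone against CWHM-12 1. Leaving out a DMSO library gave -1.57 to 2.80 points. Over libraries of at least 10 neutrophils, a setting added after the data were seen, it was 15.6, or 8.94 unthinned. The cause of the other shifts was not tested. Genes called between treatments numbered 0 to 3 when single libraries were left out, with 3 without CWHM-12 2, and 0 under the other alternatives, including fits added after the data were seen to cells without granule transcripts (260 genes tested), cells with them (943) and cells that did not divide (857). For the difference from monocytes, 1 gene passed without the class by batch term and 0 to 2 without single libraries. All 184 values of the 10 genes of smallest p kept their sign and their side of the threshold. Their sizes varied: the log2 fold change of Ifitm1 was 1.05 in the main fit and 0.546 with the stricter cell filter. Of 397 list medians 361 stayed within the spread of their libraries, and 36 moved further, some of them across 0.

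No pairing by the replicate numbers of the titles was seen: same-numbered libraries had correlations of -0.126 and -0.0199. This check cannot decide on pairing. CWHM-12 1 and CWHM-12 2 deviate from their mean as mirror images, and they also differ in batch. With the replicate block 0 genes were called between treatments (38 at an unadjusted p under 0.05) and 0 against monocytes. The block gave -0.156 points for the neutrophil share (exact p = 0.75) and 17.5 points for the granule share over libraries of at least 10 cells (exact p = 0.5). At 15 to 46 neutrophils a library, genes of few UMIs could not be tested, and a difference in them was not detectable at this depth.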

Other observations

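Outside the neutrophils, 25 kept barcodes held at least 10 UMIs over the primary granule genes Mpo, Elane, Prtn3 and Ctsg. There were 3, 0 and 12 of them in DMSO 1, 2 and 3 and 4, 6 and 0 in the CWHM-12 libraries. They held 3363 of the 3575 UMIs of these genes in all kept cells. None had 10 UMIs over S100a8 and S100a9 and none had a UMI of Ltf, Camp or Ngp, although their median depth was 13788 UMIs. By the rule on cell cycle genes 21 of them were dividing, 18 had a UMI of Cd34 or Kit, which mark blood progenitors, and 3 had a UMI of the basophil protease Mcpt8. Besides Mpo (1478 UMIs) and Elane (816), their leading genes against other kept cells included the basophil and mast cell proteases Mcpt8 (690 UMIs), Prss34 (1303) and Cpa3 (282).

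Of the 21 barcodes with neutrophil transcripts that the exclusion genes removed, 11 held a UMI of the Kupffer cell gene Clec4f. Their median was 6919 UMIs in all, 257 over S100a8 and S100a9 and 1 of Clec4f. By library, the 21 numbered 1, 2 and 5 with DMSO and 9, 3 and 1 with CWHM-12. How they arose was not tested.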
